A study of Mus musculus with 6 samples.

Results

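The heat shock and DnaJ chaperones were taken from the count table as all protein-coding rows whose symbol begins with Hspa, Hspb, Hspd, Hspe, Hsph, Hsp90, Dnaja, Dnajb or Dnajc and a number, leaving out 5 endoplasmic reticulum chaperones (Hspa5, Hsp90b1, Dnajb9, Dnajb11 and Dnajc3). The rule found 68 genes of 55493, of which 55 were among the 18210 genes with enough reads to test. The set is called cytosolic, but 8 of its members act in mitochondria (Hspd1, Hspe1, Hspa9, Dnaja3, Dnajc11, Dnajc15, Dnajc19 and Dnajc30) and 8 sit in the endoplasmic reticulum or its membrane (Hspa13, Dnajb12, Dnajb14, Dnajc1, Dnajc10, Dnajc16, Dnajc18 and Dnajc25). From general knowledge of the families, a list of 10 heat-inducible members (Hspa1a, Hspa1b, Hspb1, Hsph1, Hsp90aa1, Dnaja1, Dnajb1, Dnajb4, Hspd1 and Hspe1) was set against a list of 10 constitutive members (Hspa8, Hspa4, Hspa14, Hsp90ab1, Dnaja2, Dnajb2, Dnajb6, Dnajc2, Dnajc5 and Dnajc7).

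RNA-seq was made from microglia of male mice that carried the transgenes ILT Telo Tg and 5XFAD, the second a transgenic mouse model in which amyloid forms in the brain. From 4 months of age the mice received weekly intraperitoneal injections of 60 mg/kg of antibody, 8 in all over 8 weeks. The anti-LILRB4 group (3 libraries) received an Fc-mutant antibody against ILT3, another name of the human receptor LILRB4, and the control group (3 libraries) an Fc-mutant control antibody labelled Ctrl IgG2a. Both groups carried both transgenes, and no wild-type or untreated group enters the comparison. Brains were mechanically dissociated after perfusion, myelin was removed on Percoll, and CD45lowCD11b+ cells were sorted. Whether each library of a group had its own mouse is not stated in the labels, and the p-values below therefore rest on variation from library to library that may be technical.

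Chaperones of the HSP70 family bind unfolded stretches of protein and release them in a cycle driven by ATP. J-domain proteins, the DnaJ families, deliver clients to HSP70 and speed its ATP hydrolysis, nucleotide exchange factors such as the HSP110 protein Hsph1 reset it, and HSP90 takes over clients such as kinases and steroid receptors. When unfolded proteins build up, heat shock factor 1 (Hsf1) binds heat shock elements, alternating GAA and TTC units in the promoters of the inducible genes, whereas constitutive relatives such as Hspa8 and Hsp90ab1 are made at rest.

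Library depth ran from 41948140 to 56345514 counted reads in the anti-LILRB4 group and from 39805118 to 44987032 in the control group. The 68 chaperones took 0.351%, 0.351% and 0.371% of the reads of the anti-LILRB4 libraries, against 0.371%, 0.362% and 0.355% of those of the control libraries, and the groups overlapped. All 11 microglial markers examined were detected, with summed levels of 41880 to 42927 CPM (read counts scaled to a common library size) in anti-LILRB4 libraries, against 39677 to 41557 CPM in control libraries. The defining markers of neurons (Stmn2), oligodendrocytes (Olig1, Olig2), endothelium and pericytes (Cldn5, Rgs5) and T cells (Cd3e, Cd8a) had at most 8 reads over the 6 libraries. The astrocyte list, carried by Slc1a3 with 243 to 286 CPM in anti-LILRB4 libraries and 252 to 272.5 CPM in control libraries, summed to 248 to 290.3 CPM in anti-LILRB4 libraries and 255 to 283 CPM in control libraries, and the oligodendrocyte list, mainly Cnp, Mag and Mbp, to 159 to 171 CPM in anti-LILRB4 libraries and 125 to 144 CPM in control libraries. Neutrophil markers varied most, with summed levels of 135, 1131 and 219 CPM in anti-LILRB4 libraries, against 1339.5, 573 and 613 CPM in control libraries. In sorted bulk samples, fewer cells of a type and less RNA per cell cannot be told apart.

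The promoters below are shown because the heat shock element is what the inducible genes are known for, because Hspd1, Hspe1 and Dnaja1 had the lowest fold changes of the inducible list, and because Hspa1a and Hspa1b are the classical stress-induced genes. Each is the 150 bases before a RefSeq transcription start (build GRCm38.p6), written 5′ to 3′ on the strand of the gene. Capitals mark matches to GAANNTTC or TTCNNGAA, a pair of heat shock units. Any start of these genes whose window held no match was left out, so the windows shown were chosen for holding one. The windows are Hspd1 chr1:55087933-55088082 (minus strand), Hspe1 chr1:55087998-55088147 (plus), Dnaja1 chr4:40722318-40722467 (plus), Hspa1a chr17:34972157-34972306 (minus) and Hspa1b chr17:34959239-34959388 (minus).
Hspd1: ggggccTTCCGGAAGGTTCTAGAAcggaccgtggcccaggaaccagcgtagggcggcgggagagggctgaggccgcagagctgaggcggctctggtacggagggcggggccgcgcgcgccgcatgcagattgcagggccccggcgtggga
Hspe1: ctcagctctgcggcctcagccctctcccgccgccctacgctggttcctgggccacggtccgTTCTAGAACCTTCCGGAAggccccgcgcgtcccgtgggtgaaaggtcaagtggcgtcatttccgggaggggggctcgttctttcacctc
Dnaja1: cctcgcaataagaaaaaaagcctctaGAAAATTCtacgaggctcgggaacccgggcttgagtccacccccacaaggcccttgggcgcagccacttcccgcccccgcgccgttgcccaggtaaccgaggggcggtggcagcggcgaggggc
Hspa1a: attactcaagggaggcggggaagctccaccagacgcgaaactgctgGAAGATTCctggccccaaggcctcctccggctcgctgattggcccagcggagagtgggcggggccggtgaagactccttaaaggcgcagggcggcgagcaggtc
Hspa1b: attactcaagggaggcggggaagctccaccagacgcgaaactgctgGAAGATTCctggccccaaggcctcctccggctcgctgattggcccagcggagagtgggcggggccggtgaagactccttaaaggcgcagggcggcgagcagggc
Hspd1 and Hspe1 are divergent neighbours with 215 bases between their RefSeq starts. Of the windows shown, 85 bases are the same stretch of chromosome 1 read from opposite strands. The GENCODE annotation, used for the gene coordinates below, begins Hspd1, Hspe1 and Dnaja1 upstream of these RefSeq starts. The same joined match of 18 bases, holding 4 alternating units, therefore appears in both. The Hspa1a and Hspa1b windows differed at 1 of 150 positions.

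RefSeq promoter sequence was found for 53 of the 68 chaperones, and the 250 bases before each start were searched on both strands. Both pair motifs read the same on the opposite strand, and the longer motifs GAANNTTCNNGAA and TTCNNGAANNTTC are each other's reverse complement and contain the pairs. A pair stood in 8 of the 9 inducible genes with sequence (Dnaja1, Dnajb4, Hspa1a, Hspa1b, Hspb1, Hspd1, Hspe1 and Hsph1) and in none of the windows of Dnajb1. It stood in 6 of the 44 chaperones outside the inducible list, which is 13.6%, against 14.5% of all 27025 genes searched. Of the 6 constitutive genes with sequence only Dnajb6 held one. The longer motif stood in 3 of the 53 chaperones (Hspd1, Hspe1 and Dnajb6), which is 5.66%, against 0.514% of all genes. The Hspd1 and Hspe1 matches are the same stretch read from opposite strands, and the Hspa1a and Hspa1b windows are near copies. The counts of genes are therefore larger than the counts of separate sites. A match describes these letters and does not show that a factor binds there.

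Hspa8 and Hsp90ab1, both constitutive, had the highest mean levels over the 6 libraries. Levels between genes were compared as CPM per kilobase of annotated exon, where exons of rarely used isoforms lengthen a gene and lower its value. Hspa8 (ENSMUSG00000015656, chr9:40800984-40810087), the constitutive cytosolic HSP70, stood at 329 ± 33.0 CPM per kb in the anti-LILRB4 group and 348 ± 20.4 CPM per kb in the control group (SD, n = 3 each). It alone gave 38.8%, 38.3% and 41.8% of all chaperone reads in anti-LILRB4 libraries, against 42.4%, 40.0% and 40.8% in control libraries. Hsp90ab1, the constitutive cytosolic HSP90 (chr17:45567775-45573271), followed at 96.0 ± 15.0 CPM per kb in the anti-LILRB4 group and 82.4 ± 7.66 in the control group.

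Next in order of level were both subunits of the mitochondrial chaperonin. Hspe1, the HSP10 lid of that chamber, averaged 80.9 CPM per kb over the 6 libraries, and Hspd1, the HSP60 barrel, averaged 32.9. Hsp90ab1 and Hspe1 did not differ beyond their spread in level. The J-domain protein Dnajc8, a nuclear protein known from splicing complexes, averaged 30.8 CPM per kb and the small heat shock protein Hspb3 averaged 28.0. A run of J-domain genes then lay close together between 20.1 and 21.8 CPM per kb, namely Dnajc24, Dnajb1, Dnajc30 and Dnaja2, and their order is not resolved by the spread.

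**Figure D1:**
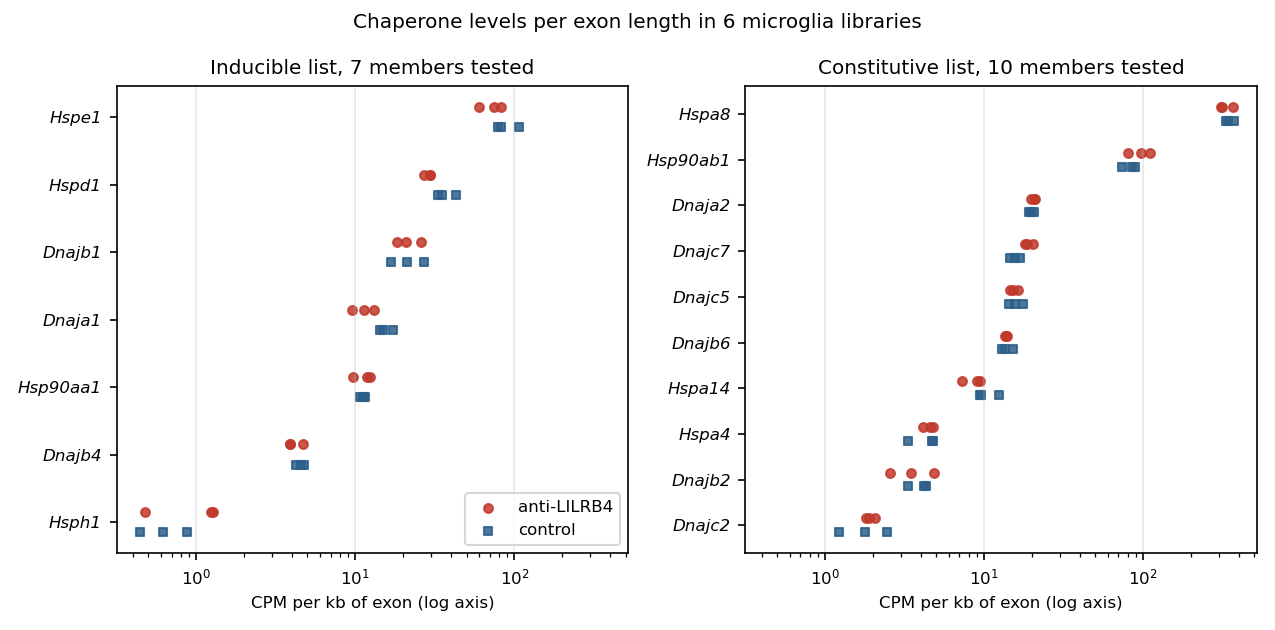
CPM per kilobase of exon (log axis) for the 7 inducible and the 10 constitutive chaperones tested, with 1 point for each library (circles anti-LILRB4, squares control). Hspa8 lies highest and Hsph1 lowest, and the anti-LILRB4 points of Dnaja1 and Hspd1 lie left of all their control points.

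The classical stress-induced HSP70 genes were near 0. Hspa1a (chr17:34969190-34972156) had 1, 2 and 0 reads in anti-LILRB4 libraries, against 1, 0 and 4 reads in control libraries. Hspa1b (chr17:34956436-34959238) had 4, 10 and 0 reads in anti-LILRB4 libraries, against 6, 0 and 1 reads in control libraries. These genes encode almost the same protein, and 48.6% of the 100-base words of Hspa1a and 49.9% of those of Hspa1b also occur in other genes, mainly in each other. Reads that map to several places may therefore be missing from both, and how the authors counted such reads is not given in the sources used here. Summed, they had 5, 12 and 0 reads in anti-LILRB4 libraries and 7, 0 and 5 reads in control libraries, which still did not pass the filter on low counts.

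Hspa8, with 62.8% of its words shared, mainly with processed copies such as Gm15459, had 60485, 75635 and 65009 reads in anti-LILRB4 libraries and 70638, 57635 and 64582 reads in control libraries. Hspb1, the inducible small heat shock protein HSP27, stood at 0.133, 0 and 0 CPM in anti-LILRB4 libraries, against 0.0904, 0.0992 and 0.364 CPM in control libraries. A count of 0 allows up to 3 reads, which is 0.0526 to 0.0744 CPM in these libraries, by counting error alone. The other members not tested were Hspa1l, Hspb2, Hspb7, Hspb8, Dnajb3, Dnajb8, Dnajc5b, Dnajc5g, Dnajc6 and Dnajc22, with at most 27 reads in any library. Hspb8 and Dnajc5b had 0 reads in all 6.

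The comparison of the antibody groups asks whether anti-LILRB4 treatment altered the chaperones of microglia. No chaperone passed the test of edgeR's quasi-likelihood method at an adjusted p of 0.05, higher or lower, and neither did any other gene (0% of 18210 in either direction, smallest adjusted p = 0.385). At an unadjusted p under 0.05, 2 of the 55 chaperones tested were higher (Dnajc7 and Dnajc16), against 4.12% of all genes, and 2 were lower (Dnaja1 and Hspd1), against 3.91% of all genes. All 3 anti-LILRB4 libraries lay above all 3 control libraries for 2 chaperones (Dnajc7 and Dnajb5), against 6.94% of all genes. All 3 lay below for 3 chaperones (Dnaja1, Hspd1 and Hspa14), against 7.79% of all genes. These counts are near the shares of all genes and are read as no result about the chaperones.

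By DESeq2 on the same counts no chaperone passed an adjusted p of 0.05, against 0.461% of all genes higher and 0.467% lower. The fold changes of the 55 chaperones ran from -0.71 (Dnaja4) to 0.88 (Hspa12b) on the log2 scale, anti-LILRB4 over control. Of these, 29 were above 0, against 49.1% of all genes, and 26 below, against 50.9%. Their median was 0.01, against -0.01 over all genes, and their median size regardless of sign was 0.21, against 0.23.

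**Figure D2:**
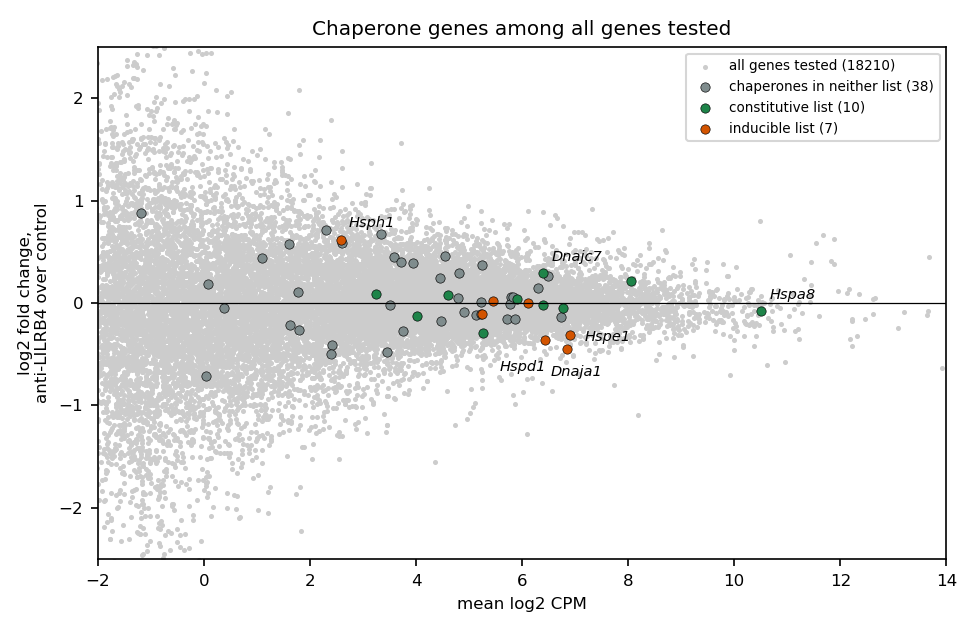
Log2 fold change, anti-LILRB4 over control, against mean log2 CPM for the 18210 genes tested (grey) with the 55 chaperones coloured by list. The chaperones lie within the cloud of all genes, Dnaja1 at -0.45 and Hspd1 at -0.36 in its lower part at their level, and 246 genes fall outside the axes.

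Among the inducible list, 7 of 10 members were tested, none passed, and 3 fold changes were above 0 and 4 below. Their median log2 fold change was -0.11, with a median size regardless of sign of 0.31. Among the constitutive list all 10 were tested, none passed, and 5 were above 0 and 5 below. Their median was 0.01 with a median size of 0.09. For 2 inducible members (Dnaja1 and Hspd1) every anti-LILRB4 library lay below every control library, against 7.79% of all genes, and for none above, against 6.94% of all genes. For the constitutive list this was 1 member in each direction, Dnajc7 above and Hspa14 below.

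Dnaja1 (ENSMUSG00000028410, chr4:40722150-40737149), a cytosolic J-domain partner of HSP70 that is itself heat-inducible, had 82.3, 97.8 and 113 CPM in anti-LILRB4 libraries, against 148, 123 and 129 CPM in control libraries. The 3 anti-LILRB4 libraries were the lowest, and the first control library was the highest. The log2 fold change was -0.45 (SE 0.139, 95% interval -0.76 to -0.14, edgeR adjusted p = 0.503). It was -0.37 without the first control library and -0.34 without the first anti-LILRB4 library. DESeq2 gave an adjusted p of 0.124, and the authors' deposited table lists a log2 fold change of -0.45 with an adjusted p of 0.135. Of its exons, 608 bases overlap Smu1 on the opposite strand, and the library kit does not mark strand.

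Hspd1 (ENSMUSG00000025980, chr1:55077835-55088243) had 77.9, 71.9 and 78.4 CPM in anti-LILRB4 libraries, against 113, 92.0 and 87.2 CPM in control libraries. Its anti-LILRB4 libraries were close together and below every control library. The log2 fold change was -0.36 (SE 0.13, 95% interval -0.65 to -0.07, edgeR adjusted p = 0.538), and -0.24 without the first control library. Its divergent neighbour Hspe1 (ENSMUSG00000073676, chr1:55088132-55091307) had 109, 87.9 and 122 CPM in anti-LILRB4 libraries, against 158, 115 and 122 CPM in control libraries. The Hspe1 groups overlapped, with the first control library again highest. Its log2 fold change was -0.31 (SE 0.16, 95% interval -0.67 to 0.05, edgeR adjusted p = 0.669), and it was -0.16 without the first control library and -0.18 without the second anti-LILRB4 library. In the GENCODE annotation, where both begin upstream of the RefSeq starts used above, the 2 genes overlap by 112 exon bases on opposite strands.

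Hsph1, the inducible HSP110 that exchanges nucleotide on HSP70, lay in the other direction. It had 3.44, 9.27 and 8.94 CPM in anti-LILRB4 libraries, against 3.21, 4.49 and 6.35 CPM in control libraries. One library of each group was near 3 CPM and the groups overlapped. Its log2 fold change was 0.62 (SE 0.403, 95% interval -0.28 to 1.52, edgeR adjusted p = 0.742). This value moved with single libraries, to 0.96 without the first anti-LILRB4 library, 0.91 without control library 3, and 0.41 without the second anti-LILRB4 library or without the first control library.

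Dnajb1 (HSP40), the J-domain partner most strongly tied to heat shock, had 66.7, 58.9 and 83.0 CPM in anti-LILRB4 libraries, against 86.8, 54.0 and 67.4 CPM in control libraries. Each group held both low and high libraries, and the log2 fold change was 0.00 (95% interval -0.42 to 0.42, edgeR adjusted p = 0.999). Hsp90aa1, the inducible HSP90, had 46.5, 48.4 and 37.7 CPM in anti-LILRB4 libraries, against 43.7, 45.2 and 42.1 CPM in control libraries. Its log2 fold change was 0.02 (95% interval -0.29 to 0.33), a value whose sign turned under upper quartile scaling, and 47.5% of its words are shared with copies elsewhere. Dnajb4, a further heat-inducible J-domain protein, had a log2 fold change of -0.11 (95% interval -0.42 to 0.20) and ran from -0.21 to -0.06 with single libraries left out.

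**Figure D3:**
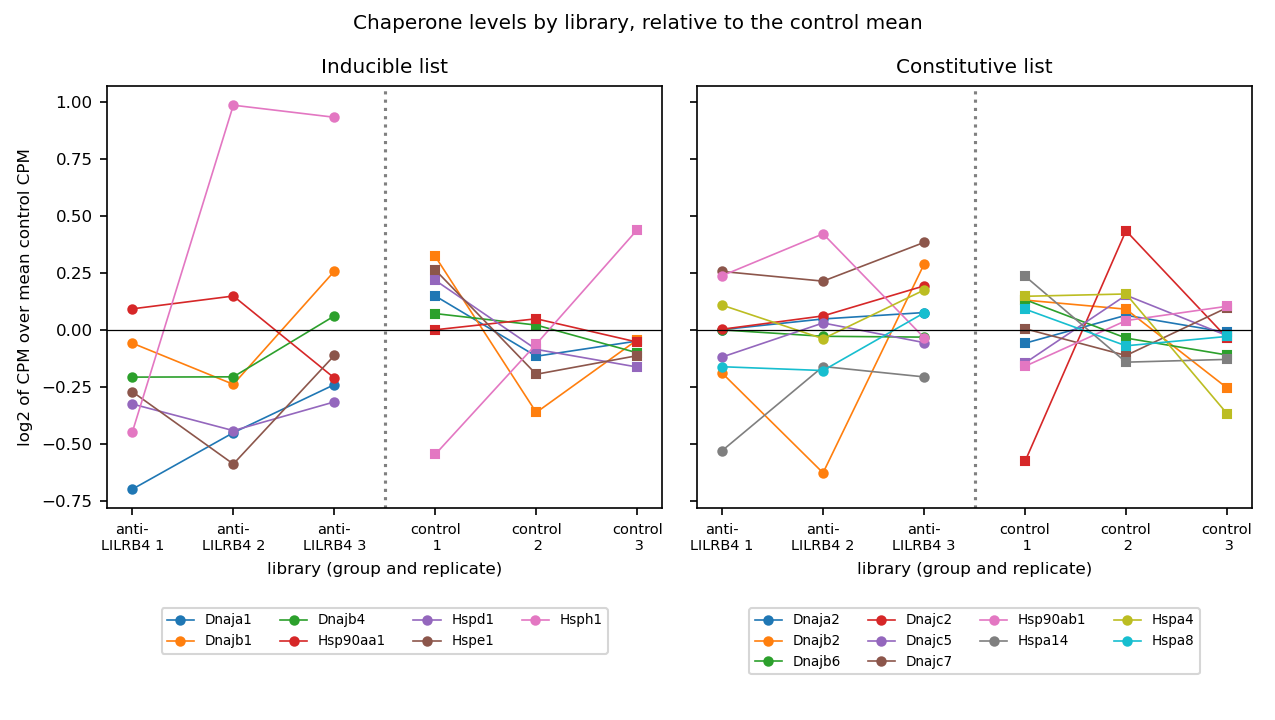
Log2 of CPM over the mean control CPM in each library, for the inducible list (left) and the constitutive list (right), with lines joining the points of a gene within a group only to trace it, since replicates have no order. The first control library is highest for 5 of the 7 inducible genes and lowest for 4 of the 10 constitutive genes. Hsph1 is about 1 unit above the control mean in 2 anti-LILRB4 libraries.

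The first control library was the highest of the 6 for 5 of 7 inducible chaperones (Dnaja1, Dnajb1, Dnajb4, Hspd1 and Hspe1), which is 71.4%, against 15 of 55 chaperones (27.3%) and 23.0% of all genes tested. It was also the library most often lowest, for 16 of 55 chaperones and 4146 of the 18210 genes tested. Among these were 4 of the 10 constitutive chaperones and 1 of the 7 inducible ones (Hsph1). The summed level of the 7 inducible genes was 421, 408 and 485 CPM in anti-LILRB4 libraries, against 595, 475 and 492 CPM in control libraries. The first control library stood above the rest, and the other control libraries lay near the highest anti-LILRB4 library. In the same library, 14 of 26 genes listed as immediate early or induced when brain tissue is dissociated were highest. The list is wider than immediate early genes alone and holds the chemokine Ccl4, for example. Its summed level was 2401, 2274.5 and 2279 CPM in anti-LILRB4 libraries, against 3147, 2487 and 2636 CPM in control libraries. Btg2, Klf6, Nfkbia, Rhob, Zfp36 and Ccl4 made up most of it. The summed level of the neutrophil markers, given above, was also highest there, as were 6 of the 11 markers singly. The part of either in the chaperone values was not tested.

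Of the constitutive list, Dnajc7 (TPR2, chr11:100582818-100620168), a J-domain protein that also binds HSP90, had 91.1, 88.5 and 99.5 CPM in anti-LILRB4 libraries, against 76.6, 70.6 and 81.6 CPM in control libraries. All 3 anti-LILRB4 libraries were above the control libraries. The log2 fold change was 0.29 (SE 0.116, 95% interval 0.03 to 0.54, edgeR adjusted p = 0.575), and 287 of its exon bases overlap Nkiras2 on the opposite strand. Hspa14, an HSP70-like protein of the ribosome-associated complex, had 29.5, 38.0 and 36.9 CPM in anti-LILRB4 libraries, against 50.1, 38.5 and 38.9 CPM in control libraries. The groups were separated by less than 1 CPM, the log2 fold change was -0.29 (edgeR adjusted p = 0.688), and it was -0.15 without the first control library. Its exons overlap the transcript Gm45902 on the same strand over 321 bases.

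Hspa8 had 1341, 1325 and 1579 CPM in anti-LILRB4 libraries, against 1597, 1429 and 1469.8 CPM in control libraries. The groups overlapped, and its log2 fold change of -0.08 had the narrowest interval of the chaperones described here (95% interval -0.29 to 0.13, edgeR adjusted p = 0.86). Hsp90ab1 had 291, 331 and 241 CPM in anti-LILRB4 libraries, against 221, 254 and 266 CPM in control libraries. These overlapped as well, with a log2 fold change of 0.22 (95% interval -0.07 to 0.51, edgeR adjusted p = 0.713), which was 0.12 with the second anti-LILRB4 library left out and 0.33 with library 3 of that group left out. Hspa8 likewise ran from -0.17 to -0.03 with single libraries left out. The other constitutive genes were Dnaja2, Dnajb6, Dnajb2, Dnajc2, Dnajc5 and Hspa4, the last an HSP110 relative, Dnajc2 the ribosome-bound J-domain partner of Hspa14 and Dnajc5 the cysteine string protein of vesicles. Their log2 fold changes lay between -0.13 (Dnajb2) and 0.09 (Dnajc2), and leaving out single libraries turned the sign of each of them except Dnaja2.

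**Figure D4:**
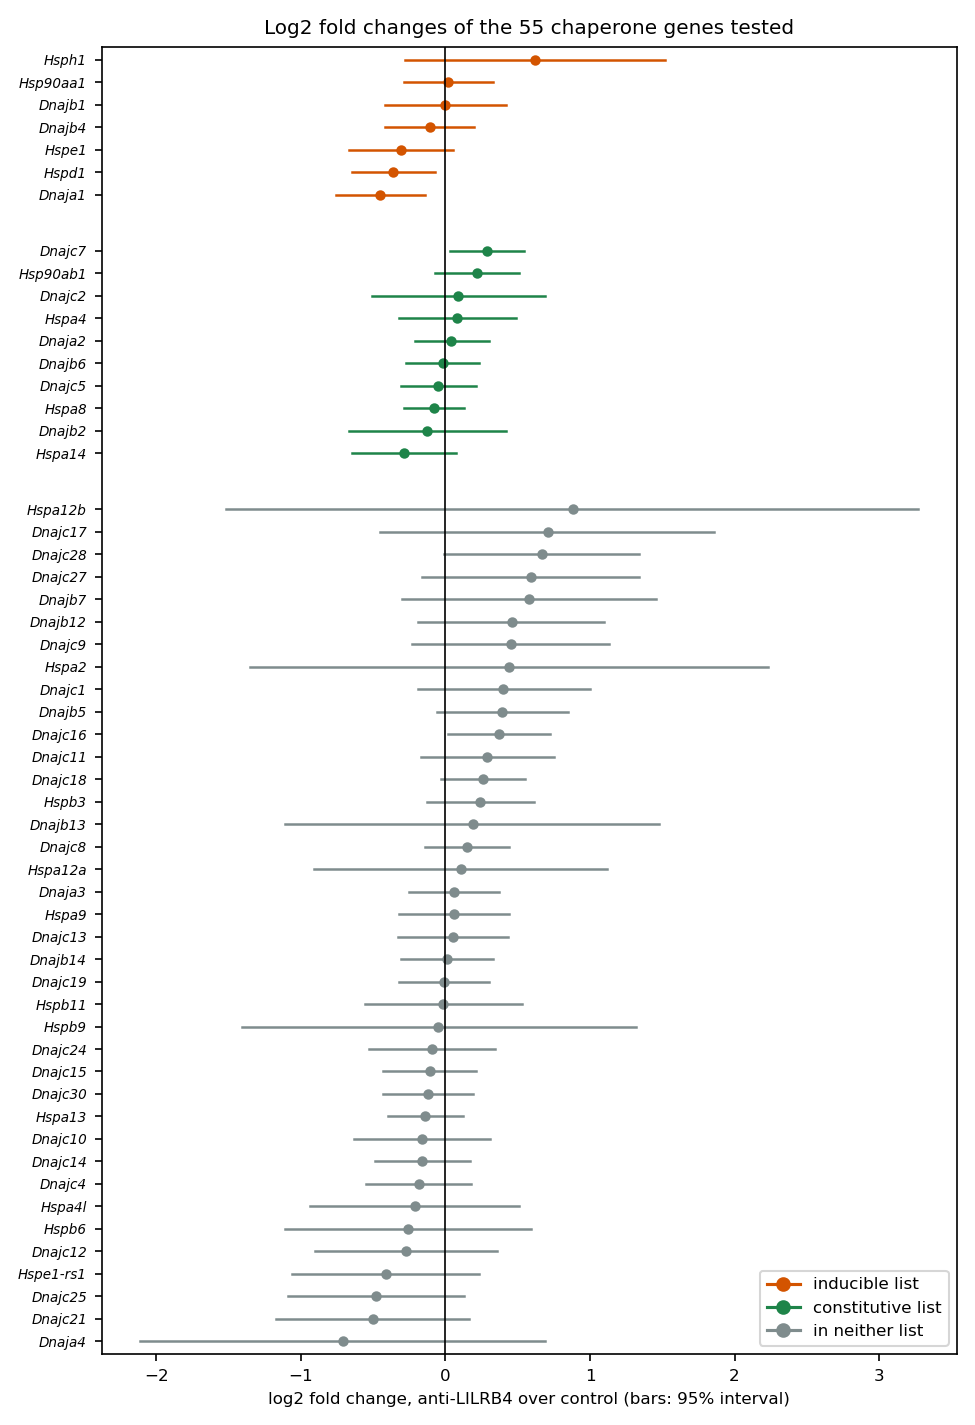
Log2 fold changes, anti-LILRB4 over control, of the 55 chaperones tested with 95% intervals, grouped by list and not adjusted for the number of genes. Intervals of Dnaja1, Hspd1, Dnajc7 and Dnajc16 leave out 0, and those of genes with few reads such as Hspa12b are the widest.

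Inducible and constitutive partners were also compared within each library, where the scaling between libraries cancels, as the log2 ratio of counts plus 0.5. The ratio of Hsp90aa1 to Hsp90ab1 was -2.65, -2.77 and -2.68 in anti-LILRB4 libraries, against -2.34, -2.49 and -2.66 in control libraries. The inducible form was the lower in every library, and the difference between groups was -0.20 (exact two-sided permutation test, p = 0.2, and 0.6 adjusted over 3 pairs). The ratio of Dnajb1 to Dnaja2 was 0.18, -0.05 and 0.42 in anti-LILRB4 libraries, against 0.61, -0.19 and 0.20 in control libraries, a difference of -0.03 (exact permutation p = 0.9, adjusted 0.9). The ratio of Hspa1a plus Hspa1b to Hspa8 was -13.42, -12.56 and -16.99 in anti-LILRB4 libraries, against -13.20, -16.81 and -13.52 in control libraries. The lowest value of each group is a library with 0 Hspa1 reads and is set by the added 0.5, and the difference of 0.19 (exact permutation p = 0.9, adjusted 0.9) rests on at most 12 reads. With 3 libraries a group the smallest p this test can give is 0.1.

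The mitochondrial members listed (8 tested) had a median log2 fold change of -0.06, with Hspd1 lowest. Dnajc11, which associates with the MICOS complex that shapes the inner membrane, was highest at 0.29. Dnaja3, the mitochondrial J-domain partner of Hspa9, stood at 0.06. The endoplasmic reticulum members listed (8 tested) had a median of 0.14. Among these Dnajb12, a J-domain protein of the membrane that serves degradation of misfolded proteins, stood at 0.46 (SE 0.289) and the HSP70-like Hspa13 at -0.14. Dnajb12 was at 0.22 without the second anti-LILRB4 library and at 0.19 without the first control library, and Hspa13 at -0.05 without the second anti-LILRB4 library. Dnajc16 had 37.1, 42.8 and 48.7 CPM in anti-LILRB4 libraries, against 30.0, 38.1 and 31.5 CPM in control libraries, which overlapped (log2 fold change 0.37, SE 0.157, edgeR adjusted p = 0.605).

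Over the 38 tested members in neither list, the median was 0.05, with 21 above 0 and 17 below. Dnajb5, a cytosolic J-domain protein close to Dnajb1, was the only one of these whose groups did not overlap, with 16.4, 16.3 and 19.8 CPM in anti-LILRB4 libraries, against 10.5, 13.96 and 15.5 CPM in control libraries. Its log2 fold change was 0.39 (SE 0.204, edgeR adjusted p = 0.671), and 0.25 without the first control library. The most abundant others per length were Dnajc8 at 0.15 (0.05 without control library 3) and Hspb3 at 0.24 (0.16 to 0.37 with single control libraries left out), neither past the test.

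The factors that drive and assist these chaperones were examined next. Hsf1 had 35.7, 50.5 and 43.9 CPM in anti-LILRB4 libraries, against 39.0, 34.6 and 48.8 CPM in control libraries. Its groups overlapped, with a log2 fold change of 0.09 (edgeR adjusted p = 0.932). Of the 5 heat shock factor genes and binding proteins listed, 4 were tested (all except Hsf4) and none passed. Of the 26 cochaperones, all tested, none passed. Above 0 were 19, against 49.1% of all genes, and below 0 were 7, against 50.9%, with a median log2 fold change of 0.17.

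Bag1, a nucleotide exchange factor of HSP70, had 8.44, 13.9 and 9.91 CPM in anti-LILRB4 libraries, against 7.17, 6.12 and 6.51 CPM in control libraries. All anti-LILRB4 libraries were above the control libraries (log2 fold change 0.70, SE 0.247, edgeR adjusted p = 0.523). Ptges3 (p23), which stabilises the closed form of HSP90, had 369, 337 and 409.8 CPM in anti-LILRB4 libraries, against 531, 434 and 448 CPM in control libraries. These were below all control libraries (log2 fold change -0.34, SE 0.114, edgeR adjusted p = 0.506). The groups were also apart for Bag4 and Stub1, a ubiquitin ligase that works on HSP70 clients, with log2 fold changes of 0.17 and 0.26. Chordc1, a partner of HSP90, had groups apart as well, with -0.33. In all, the groups were apart upward for 3 of the 26 cochaperones (Bag1, Bag4 and Stub1), against 6.94% of all genes. They were apart downward for 2 (Ptges3 and Chordc1), against 7.79% of all genes. Counts this small are read as no result about the cochaperones. The stress-inducible exchange factor Bag3 stood at 0.32 (0.02 without the second anti-LILRB4 library), the HSP70-HSP90 adaptor Stip1 at 0.34 (0.15 without anti-LILRB4 library 3) and the HSP90 activator Ahsa1 at 0.16 (0.10 without control library 3). With single libraries left out, Chordc1 ran from -0.41 to -0.21 and Bag4 from 0.10 to 0.25.

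The cytosolic chaperonin and prefoldin genes, which fold actin and tubulin, were 14, all tested. None passed, 3 were above 0, against 49.1% of all genes, 11 were below, against 50.9%, and the median log2 fold change was -0.08. The first control library was the highest for 8 of the 14, against 23.0% of all genes. Cct7 was the only one with groups apart (downward, against 7.79% of all genes), at -0.22 (edgeR adjusted p = 0.654), and -0.12 without the first control library. Of the 5 endoplasmic reticulum chaperones left out by the rule, Hspa5 (BiP) had 846, 809.7 and 946 CPM in anti-LILRB4 libraries, against 1207, 965 and 1076 CPM in control libraries. All 3 anti-LILRB4 libraries were below the control libraries (log2 fold change -0.32, edgeR adjusted p = 0.506). Of these 5 genes, 3 were highest in the first control library, against 23.0% of all genes. The other 2 were lowest there, against 4146 of the 18210 genes tested.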

How the data were processed

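The authors deposited raw read counts per Ensembl gene for 6 libraries and a table of their own comparison with the mean normalized count (a signal), log2 fold change with its standard error, test statistic (a score), p-value and adjusted p-value per gene. STAR, Subread, featureCounts, Salmon and DESeq2 1.38.3 are named per the submitters' processing notes, while the build, the annotation and the treatment of multi-mapping reads were not given in the sources used here. Here 287 repeated rows were dropped, leaving 55493 genes. Genes were kept by filterByExpr (minimum count 10), scaled by TMM and tested with edgeR 4.0.16 (quasi-likelihood, Benjamini-Hochberg, threshold 0.05) in R 4.3.3 over all 6 libraries, with no covariates. CPM uses TMM-scaled library sizes. DESeq2 1.42.0 and limma-voom 3.58.1 were alternatives. Coordinates, overlaps, exon lengths and shared 100-base words came from GENCODE M21 on GRCm38, and promoters from RefSeq on GRCm38.p6.

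Simulated data of 17511 genes were drawn from the mean levels and sizes of these libraries. Spread between replicates followed only its fitted trend with level. Among genes at higher levels, 100 were changed by 1 and 100 by 2 on the log2 scale. Of these, edgeR recovered 85% and 100% with 8 false calls. The number of unchanged genes wrongly called by DESeq2 was larger, at 35. It found 88% of the genes changed by 1 and 99% of those changed by 2. Departures of single genes from the trend were left out, so these rates need not hold for the real counts. Replicates of a group differed beyond counting error (chi-square per degree of freedom 22.1 to 58.7), so each library was counted separately. Same-numbered libraries of the groups did not deviate together (r = 0.014, 0.029 and -0.014), so the numbers were not taken to pair them. Intervals of counts cover counting error only.

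The members and lists were chosen with earlier results of these data known. Named were the tested members of the inducible and constitutive lists, further members with separated groups, the most abundant other member of each family, Hsf1, Bag3, Stip1 and Ahsa1, and genes on which a count of 5 or fewer rests. Some genes were named after their values were seen, as ends of a range, neighbours in the order of levels or the main part of a sum. These were Dnaja4, Hspa12b, Dnajc11, Dnajc24, Dnajc30, Slc1a3, Cnp, Mag, Mbp, Btg2, Klf6, Nfkbia, Rhob, Zfp36 and Ccl4. The authors' deposited comparison lists 61 of the 68 chaperones, 0 of them with an adjusted p under 0.05.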

Additional observations from a re-analysis of the deposited data

How the results depend on the processing

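No chaperone was called in any alternative run. Over all genes 0 higher and 0 lower calls were made in every alternative, limma-voom and each library left out included, except that DESeq2 called 84 higher and 85 lower while 183 higher and 117 lower calls came from edgeR run on unfiltered genes. The median log2 fold change of the inducible list ran from -0.21 to -0.06 with single libraries left out, and that of the constitutive list from -0.06 (without the third control library) to 0.06. The sign of small fold changes turned when a library was left out: Dnajc5 to 0.04, Dnajb6 to 0.05, Hspa4 to -0.07, Dnajb2 to 0.08, Dnajc2 to -0.13, Dnaja3 to -0.03, Hsf1 to -0.03 or -0.01, and Hsp90aa1 to -0.02, -0.04 or -0.01, as under upper quartile scaling (-0.01). With single libraries left out, Dnajc5 ran from -0.11 to 0.04, Dnajb6 from -0.07 to 0.05, Hspa4 from -0.07 to 0.18, Dnajb2 from -0.39 to 0.08, Dnajc2 from -0.13 to 0.37, Dnaja3 from -0.03 to 0.18, Hsf1 from -0.03 to 0.24 and Hsp90aa1 from -0.04 to 0.12. The group difference in the log2 ratio of Hspa1a plus Hspa1b to Hspa8 ran from -0.97 to 1.52 and that of Dnajb1 to Dnaja2 from -0.23 to 0.17. The cause was not tested. With the replicate number as a block, 0 genes were called in either direction, and the numbers do not pair the libraries. The fit of edgeR without its legacy option was chosen after seeing the data. Depth limits Hspa1a, Hspa1b and Hspb1, for which a few reads per library allow no comparison.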

Other observations

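Among genes outside the chaperone set, Cirbp, a cold-inducible RNA-binding protein, had 119.8, 120.8 and 138 CPM in anti-LILRB4 libraries, against 52.5, 76.7 and 80.2 CPM in control libraries. The groups did not overlap, and the log2 fold change was 0.86 (SE 0.164, edgeR adjusted p = 0.410, DESeq2 adjusted p = 0.000612). The other cold-inducible gene listed, Rbm3, stood at -0.18 with overlapping groups. Of the 26 immediate early and dissociation genes, 22 had a log2 fold change below 0, against 50.9% of all genes, and none passed edgeR's test. The groups were apart downward for 11, against 7.79% of all genes, and upward for 1, against 6.94%. DESeq2 called 3 lower, against 0.467% of all genes. These were Klf4 at -1.52, Ier2 at -0.76 and Junb at -0.54 (DESeq2 adjusted p = 0.00268, 0.00795 and 0.00294). In the simulation above, 35 unchanged genes were wrongly called by DESeq2 and 8 by edgeR. That simulation left out departures of single genes from the trend of spread, so it does not give the number of wrong calls in the real counts. The DESeq2 calls given here, that of Cirbp included, are read with these limits.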
